A study of Mus musculus with 121 samples.

Results

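The C/EBP family of transcription factors was followed through single cells of mouse bone marrow that differed in how far they had gone toward the granulocyte. Its members were taken by gene symbol as Cebpa, Cebpb, Cebpd, Cebpe, Cebpg and Cebpz, which are 6 of the 23946 genes in the expression table. The donors were C57BL/6 mice whose genotype is written as Gfi1-R412X/- and also as HTZ, Gfi1 being a transcriptional repressor of the granulocyte lineage. Hindlimb marrow was crushed, enriched on CD117 beads and sorted, and cells were captured on the Fluidigm C1, with cDNA from the SMARTer kit and Nextera XT libraries. The labels name 2 populations, 75 cells called GMP and 46 cells called CD11b+ GMP-P, and a second table gives each cell 1 of 12 state names. All of them share this genotype and none with unmutated Gfi1 was analysed here, so no value below measures what the allele does. Which animal gave a cell is not labelled. Each population therefore counts as 1 sample, and every value is a description of these cells with no test. An SD is the spread over cells and not an error between replicates.

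C/EBP proteins are basic leucine zipper factors that bind DNA as dimers with each other and with other zipper proteins. C/EBP alpha is required for the entry of myeloid progenitors into the granulocyte and monocyte path, and C/EBP epsilon for the later steps in which neutrophils make their secondary granules. C/EBP beta is known for granulocyte production under stress, C/EBP delta for responses to cytokines, C/EBP gamma as a short partner that lacks a strong activation domain, and the product of Cebpz, despite its symbol, is not a zipper protein of this kind.

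Expression is given as log2(TPM + 1), where TPM is a transcript abundance scaled for transcript length and for the total of the cell, and a transcript was called detected at a TPM of at least 1. TPM keeps no record of read number, so depth is unknown, and a value of 0 can be a missed transcript; 81.7% of all values were 0. The median number of detected genes per cell was 4455 in MP and 1685.5 in Myelo-4, so a low share of detected cells in the Myelo states stands beside fewer detected genes. The cell names carry 4 run names, here grouped as 62 GMP cells of 1 run name, 13 GMP cells of the 2 late July run names, and the 46 CD11b+ GMP-P cells of 1 run name. The run name of the CD11b+ GMP-P cells can be read as the same late July day. The label late July therefore does not set the 13 GMP cells apart from them by date. The run name of the 62 other GMP cells holds no date. MP and the Myelo states share no run name, so state and run cannot be told apart between them. The 13 late July GMP cells stood apart from the other GMP cells: 11 of 13 detected Itgam, the gene for CD11b, against 5 of 62 other GMP cells and 35 of 46 CD11b+ GMP-P cells. No pair of cells had identical values. The sources used here do not give the method behind the state names. If it used these same values, differences between states are no independent evidence.

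Among the 8 states with at least 5 cells, to which the rankings of states below are limited, Cebpa was highest in MP and lowest in Myelo-2. In the 11 MP cells it ranged from 0 through a median of 4.01 to 6.75 on the log2 scale, with a mean of 3.20 ± 2.85 (SD over cells), and 7 of 11 cells detected it (63.6%, exact Clopper-Pearson 95% interval 30.8% to 89.1%, which covers the counting of cells only). In the 18 Myelo-2 cells the median was 0 and the highest value 1.05, with 1 of 18 cells detecting it (5.56%, interval 0.14% to 27.3%). MP thus held cells both with and without the transcript, whereas Myelo-2 cells lay close to 0 throughout.

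Between these ends the means were 1.42 ± 2.09 in Gran-1, 1.23 ± 2.30 in Gran-2, 1.24 ± 1.65 in Myelo-1 and 0.53 ± 1.16 in Myelo-4. On the monocyte side Cebpa had a mean of 2.12 ± 2.32 in 38 Mono cells, 19 of which detected it. In the 5 cMoP cells the values were 0, 0, 0, 0 and 1.58. Ordered by mean, no neighbouring pair of states differed by more than the smaller of their SDs. The highest single values came from the rarest states: 7.83 in the 1 HSCP-1 cell, 7.32 in the 1 MDP cell and 7.26 in 1 of 2 Multi-Lin cells. A list of 6 basophil and mast markers summed to 4098 TPM in the HSCP-1 cell and to 4800 and 28936 TPM in the 2 Multi-Lin cells. The sum was 15.2 TPM in the MDP cell, and its median in MP was 511 TPM.

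The level of Cebpa also moved with the run name inside a state. Among Mono cells, 19 of 32 of the other GMP cells detected it (59.4%, interval 40.6% to 76.3%), with a mean of 2.52 ± 2.32. All 6 Mono cells in CD11b+ GMP-P were listed at 0, and a count of 0 of 6 allows a share up to 50%, taking 3 cells of the total as the limit here and at the other counts of 0. The medians of detected genes in these Mono cells were 4671.5 and 4434. None of the 13 late July GMP cells reached a TPM of 1, which allows a share of up to 23.1%. Among these 13, 7 were Myelo-2 and 3 were Myelo-4 cells. Few cells of those states detected it in CD11b+ GMP-P too (1 of 11 and 2 of 7), so this count is not a comparison inside a state. The sort, the run and the lower level of Cebpa in the Myelo states than in MP cannot be told apart.

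Cebpe had a higher mean in each Gran and Myelo state with at least 5 cells than in MP. In MP its values ranged from 0 through a median of 1.20 to 7.06, with a mean of 2.16 ± 2.63 and 6 of 11 cells detecting it. The means were 3.48 ± 2.69 in Gran-1, 4.05 ± 2.04 in Gran-2, 4.23 ± 2.72 in Myelo-2 and 3.99 ± 2.82 in Myelo-4. In Gran-2, with values from 0 through a median of 4.50 to 7.21, 13 of 15 cells detected it (86.7%, interval 59.5% to 98.3%). The ranges of all these states overlap, and each held some cells at or near 0.

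The 5 Myelo-1 cells split for Cebpe, with values of 0, 0, 0, 7.22 and 7.55. All 5 cMoP cells were listed at 0, a count that allows a share up to 60%. The 38 Mono cells had a mean of 1.49 ± 2.17 with 16 detecting it. Mono and cMoP were the only neighbours in the order of means, from Myelo-2 down to cMoP, whose gap (1.49) passed the smaller SD, which was 0 in cMoP. The highest value of all was 8.10 in a Myelo-2 cell of CD11b+ GMP-P. Within Myelo-2 the mean was 4.99 ± 2.73 in 11 CD11b+ GMP-P cells and 3.04 ± 2.42 in 7 late July GMP cells, and both ranges overlap. Cebpe was detected in 7 of 10 Myelo-4 cells although these had the fewest detected genes of the 8 states.

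**Figure D1:**
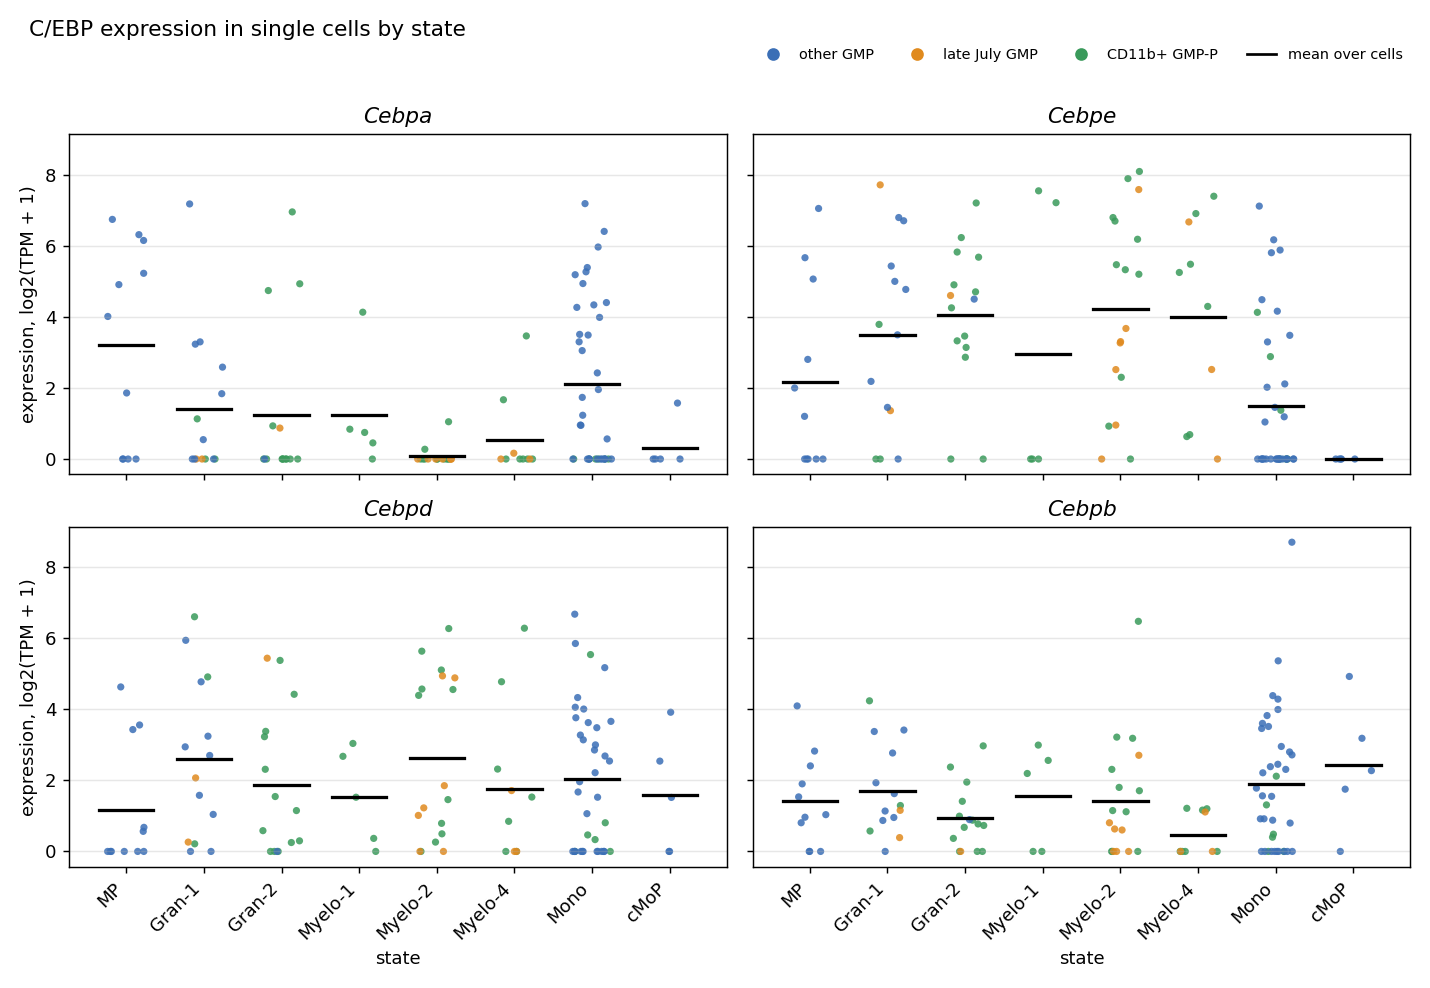
Each point is 1 cell, with its state on the x axis and its log2(TPM + 1) on the y axis, coloured by population and run group, and the black line is the mean over cells. Cebpa has its highest mean in MP (3.20) and lies near 0 in Myelo-2, whereas Cebpe has means of 3.99 to 4.23 in Gran-2, Myelo-2 and Myelo-4 and is 0 in all 5 cMoP cells.

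Cebpd was detected in each of the 8 states with at least 5 cells, and its means spanned a narrower range than those of Cebpa or Cebpe. MP had the lowest mean, 1.17 ± 1.78, with values from 0 through a median of 0 to 4.63 and 3 of 11 cells detecting it. Myelo-2 had the highest, 2.64 ± 2.31, with values from 0 through a median of 1.66 to 6.28 and 12 of 18 cells detecting it. Gran-1 was close to it at 2.59 ± 2.26 (10 of 14 cells). Gran-2 (1.87), Mono (2.05), Myelo-4 (1.75), cMoP (1.60) and Myelo-1 (1.52) lay between. The state at the top depended on the scale: with each cell scaled to a common upper quartile of its detected genes, Gran-1 was highest (2.58). The lowest state was Myelo-1 by mean TPM and with a pseudocount of 10, and Myelo-4 (1.16, 2 cells) among cells with at least 2000 detected genes.

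Among the same 8 states, Cebpb had its lowest mean in Myelo-4 and its highest in cMoP, although by mean TPM Mono was highest (15.9). The 1 HSCP-1 cell was at 7.37. The 5 cMoP values were 0, 1.75, 2.28, 3.19 and 4.93, with a mean of 2.43 ± 1.82. In the 10 Myelo-4 cells the values ran from 0 through a median of 0 to 1.21, with a mean of 0.47 ± 0.61. The other means were 1.42 ± 1.31 in MP, 1.70 ± 1.28 in Gran-1, 0.94 ± 0.90 in Gran-2, 1.55 ± 1.44 in Myelo-1, 1.43 ± 1.69 in Myelo-2 and 1.89 ± 1.93 in Mono. A single Mono cell held the highest value of any member other than Cebpz, 8.71 or 417 TPM. Cebpb is a case where a share and a level part: 4 of 10 Myelo-4 cells passed a TPM of 1, yet none passed 1.32.

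Cebpg and Cebpz completed the family. Cebpg was detected in 28 of 121 cells, with means in the 8 states from 0.42 ± 1.23 in Myelo-4 to 1.51 ± 2.44 in Mono, a value of 7.52 in the 1 MDP cell, and a median of 0 in MP, Gran-1, Gran-2, Myelo-2, Myelo-4 and Mono. Cebpz, a large protein with a described role in ribosome production, was detected in 73 of 121 cells. Its means were 3.45 ± 1.84 in MP, 3.97 ± 3.57 in Gran-1, 3.99 ± 3.07 in Gran-2 and 4.64 ± 2.91 in cMoP. They were 1.55 ± 2.73 in Myelo-1, 1.10 ± 1.68 in Myelo-2 and 1.52 ± 2.47 in Myelo-4, the states with fewer detected genes. One Gran-1 cell of CD11b+ GMP-P reached 9.85 (921 TPM), the highest value of any member.

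**Figure D2:**
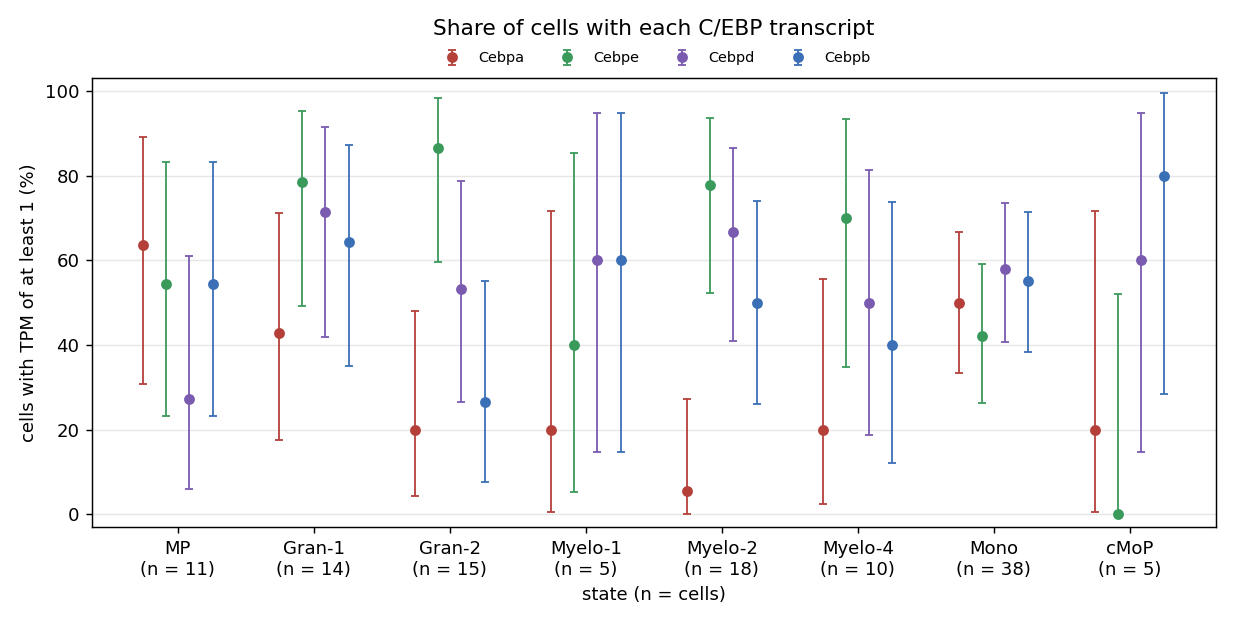
The share of cells with a TPM of at least 1 is plotted by state for 4 members, with exact 95% intervals that cover the counting of cells only. The share for Cebpa is 63.6% in MP and 5.56% in Myelo-2, and that for Cebpe is 86.7% in Gran-2, but most intervals overlap.

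Transcript models differ between the members in ways that bear on short-read values. In GENCODE vM21 (GRCm38), the longest coding transcript has 1 exon in Cebpa, Cebpb and Cebpd, 2 in Cebpe and Cebpg, and 16 in Cebpz. Its GC content is 62.6% in Cebpa, 67.2% in Cebpb and 61.5% in Cebpe, above 98.6%, 99.8% and 97.7% of 19612 genes, and 51.6% in Cebpd and 43.3% in Cebpg. Exons of a gene on the other strand overlap those of Cebpa (Gm45091, 51 bases), Cebpb (Tmem189, 312 bases), Cebpd (Spidr, 562 bases), Cebpg (Gm45095, 4 bases) and Cebpz (Cebpzos, 171 bases). No source used here says that counting kept strand, so reads of a pair cannot be told apart there. Tmem189, Spidr and Cebpzos were detected in 20, 38 and 39 of 121 cells, and Spearman's rho over cells between member and partner was 0.12, 0.02 and -0.02. The part of GC content in the levels was not tested.

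Differences between states were then taken within a run name where both states had at least 3 cells. A difference of at least 1 in mean log2(TPM + 1) was called, and the share of all kept genes that passed the same line was read beside it. A gene was kept if at least 10% of the cells of either state detected it. Within the other GMP cells, Gran-1 against MP called 3 of 6 members, and 30.4% of 10121 kept genes were called. Cebpe differed by 1.82 (3.98 ± 2.37 in 9 Gran-1 cells, 2.16 ± 2.63 in 11 MP cells), Cebpd by 1.30 and Cebpa by -1.13. Each of these differences was smaller than the spread of cells within either state. From mean TPM, Cebpe differed by 0.81 and Cebpa by -0.68, both under the line, and Cebpd by 1.37. With a pseudocount of 10 the values were 0.79, -0.67 and 0.46, and none was called.

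In the same run, Mono against MP called only Cebpd, 1.04 higher in Mono, and 22.3% of kept genes were called. Gran-1 against Mono called 2 of 6, Cebpe by 2.48 (3.98 ± 2.37 against 1.51 ± 2.26) and Cebpz by 1.18, where 24.2% of kept genes were called. The difference in Cebpe between Gran-1 and Mono was the one that passed the SD of both states. Cebpa, Cebpb, Cebpd and Cebpg differed by 0.44 or less between Gran-1 and Mono.

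Gran-2 against Gran-1 over all runs called none of the 6 members, with 32.2% of kept genes called. Differences ran from -0.76 for Cebpb to 0.57 for Cebpe. State is largely tied to run and sort here, as 9 of 14 Gran-1 cells were other GMP and 13 of 15 Gran-2 cells were CD11b+ GMP-P. Inside CD11b+ GMP-P the same pair rested on 3 Gran-1 cells and called 4 members, Cebpe by 2.71, Cebpd by -2.18, Cebpz by -1.58 and Cebpb by -1.03, where 55.1% of all kept genes were called. Cebpe therefore differed by 0.57 over all runs and by 2.71 in the run with 3 Gran-1 cells, of which 1 detected it.

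From Gran-2 to Myelo-2 within CD11b+ GMP-P, 4 of 6 members were called, where 48.7% of kept genes were. Cebpa was 1.23 lower in Myelo-2 (0.12 ± 0.32 in 11 cells, 1.35 ± 2.46 in 13 Gran-2 cells) and Cebpz 2.24 lower. Cebpd was 1.32 higher and Cebpe 1.02 higher, while the median kept gene differed by -0.83. In Myelo-2 cells of that run with at least 2000 detected genes, Cebpe was at 0, 0.93, 2.30, 6.19, 6.70 and 8.10. These lay on both sides of the Gran-2 mean of 3.97, so the call for Cebpe rested on cells with fewer detected genes. From Myelo-2 to Myelo-4 in that run, 1 of 5 kept members was called, Cebpb by -1.40 (0.51 ± 0.64 in 7 cells, 1.91 ± 1.91 in 11 cells), where 41.6% of kept genes were called. Cebpe differed by -0.61 there, close to the median kept gene at -0.42.

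Over the whole series from MP to Myelo-4, Cebpa differed by -2.67, Cebpb by -0.95, Cebpd by 0.58 and Cebpe by 1.82. Counting Cebpz at -1.93, 3 of 6 members were called, where 63.1% of kept genes were, most of them lower, and the median kept gene differed by -1.27. Cebpe was higher although only 5.11% of kept genes were called higher. The share of members called lay above the share of all genes in some of these comparisons and below it in others, and is no result about the family. Without the 13 late July GMP cells the values for Cebpa, Cebpd and Cebpe were -2.47, 1.08 and 2.22. There 4 of 6 members were called, and 65.7% of kept genes were.

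Between the populations Cebpa and Cebpe were called, and Cebpz differed by -0.43. In CD11b+ GMP-P against GMP, Cebpa was 1.45 lower (0.68 ± 1.57 in 46 cells, 2.13 ± 2.55 in 75 cells; 8 and 35 cells detecting it). Cebpe was 1.48 higher (3.57 ± 2.81 against 2.09 ± 2.51; 31 and 38 cells). These were 2 of 6 members, and 31.1% of kept genes were called. Against the 13 late July GMP cells alone, none of the 6 was called, where 18.6% of kept genes were: Cebpe differed by 0.17, and Cebpa by 0.60 in the opposite direction. The run names on both sides of that comparison can be read as the same day. The part of the run date in the difference between the populations was not tested. Summed levels of 10 neutrophil progenitor markers had medians of 92396 TPM in CD11b+ GMP-P, 206187 TPM in late July GMP and 42356 TPM in other GMP, with Ltf and Ngp listed at 0 in every other GMP cell. The 8 monocyte progenitor markers had medians of 24.2, 7.2 and 1178 TPM. Their part in the differences was not tested.

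Pairs of members were scored in each cell. Cebpe and Cebpd were both detected in 39 of 121 cells (32.2%), Cebpd and Cebpb in 37, Cebpe and Cebpb in 34, Cebpa and Cebpd in 27, and Cebpa and Cebpb in 26. Cebpa and Cebpe were both detected in 22 cells (18.2%, interval 11.8% to 26.2%), the smallest of these 6 counts. Cebpe was detected in 22 of 43 cells with Cebpa (51.2%) and in 47 of 78 cells without it (60.3%).

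The pairing of Cebpa and Cebpe varied by run in step with Cebpa itself. Both were detected in 16 of 62 other GMP cells (25.8%), 6 of 46 CD11b+ GMP-P cells and none of 13 late July GMP cells. Within the other GMP cells Cebpe was detected in 16 of 35 cells with Cebpa and 12 of 27 without, or 45.7% and 44.4%. In MP, 3 of 11 cells had both, 4 had Cebpa alone, 3 Cebpe alone and 1 neither. Of the cells with Cebpa, Cebpe was detected in 3 of 3 in Gran-2, 1 of 1 in Myelo-2, 1 of 2 in Myelo-4, 0 of 1 in Myelo-1 and 9 of 19 in Mono.

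As a description over 121 cells, which share runs and detection depth, Spearman's rho was -0.11 for Cebpa and Cebpe, 0.14 for Cebpe and Cebpd, 0.10 for Cebpa and Cebpb, 0.07 for Cebpd and Cebpb, 0.02 for Cebpa and Cebpd, and -0.03 for Cebpe and Cebpb. Within Myelo-2 it was 0.47 for Cebpe with Cebpd and 0.47 for Cebpe with Cebpb over 18 cells. In Mono it was -0.40 for Cebpe with Cebpb over 38 cells: Cebpb was detected in 6 of 16 cells with Cebpe and 15 of 22 without. In values this sparse such weak relations are no finding.

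**Figure D3:**
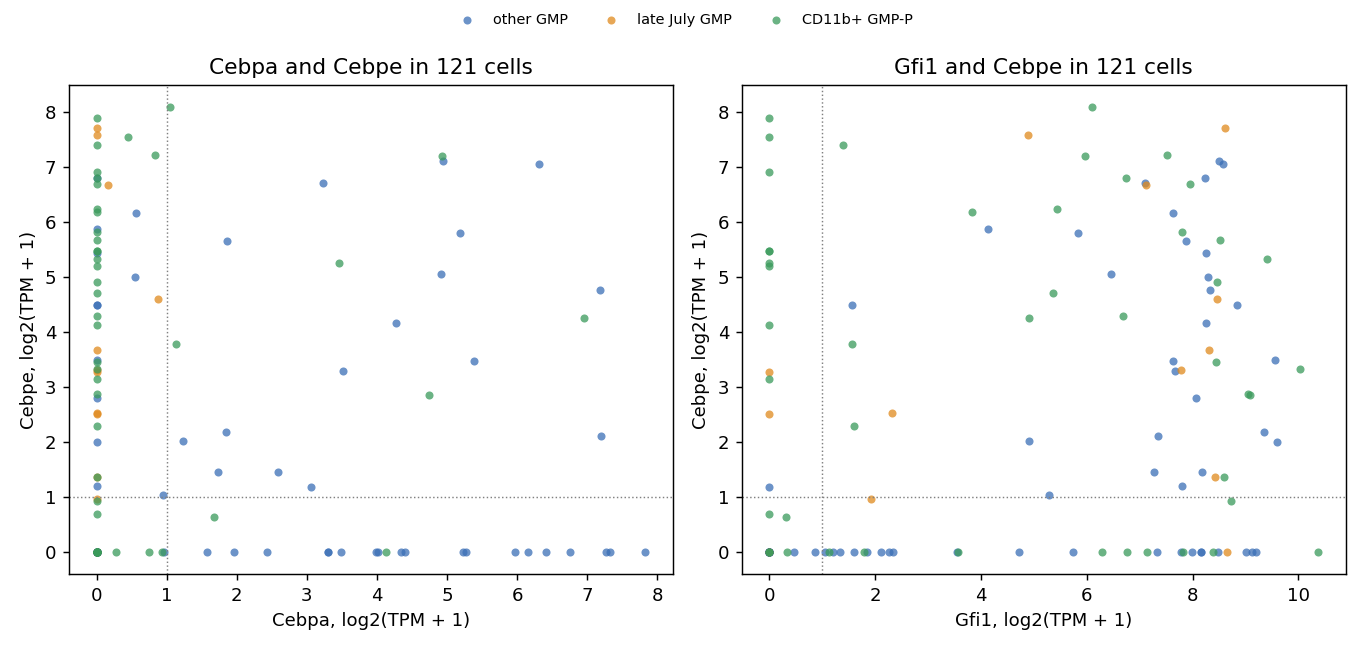
Each point is 1 of 121 cells, with log2(TPM + 1) of Cebpa (left) or Gfi1 (right) on the x axis and of Cebpe on the y axis, coloured by run group, and dotted lines mark a TPM of 1. Cebpa and Cebpe pass both lines in 22 cells; Gfi1 and Cebpe do so in 57.

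Taking the member with the highest TPM among Cebpa, Cebpb, Cebpd and Cebpe in each cell, Cebpe led in 6 of 11 MP, 6 of 14 Gran-1, 9 of 15 Gran-2, 12 of 18 Myelo-2 and 7 of 10 Myelo-4 cells. Cebpa led in 3 of 11 MP, 3 of 14 Gran-1 and 1 of 15 Gran-2 cells, and in none of the 18 Myelo-2 or 10 Myelo-4 cells. In Mono no member led in most cells: Cebpa was highest in 11 of 38 cells, Cebpd in 8, and Cebpb and Cebpe in 7 each. Cebpb led in 4 of 5 cMoP cells. The mean and the count differed in MP, where Cebpa made up 52.7% of the summed mean TPM of the 4 genes (30.8 of 58.4 TPM), yet Cebpe led in more cells. They differed in Mono too, where Cebpb had the largest share (30.8%, with Cebpa at 28.4%) but led in fewer cells than Cebpa.

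**Figure D4:**
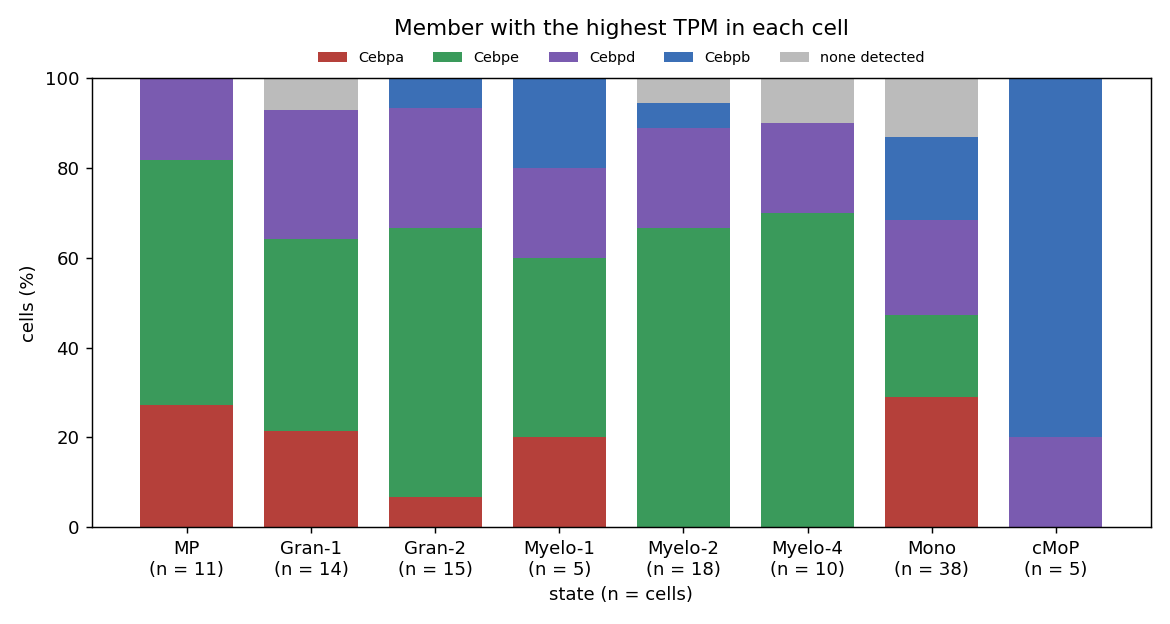
Stacked bars give the percentage of cells of each state in which each of 4 members had the highest TPM, with grey for cells that detected none. Cebpe leads in 70% of the 10 Myelo-4 cells and Cebpb in 80% of the 5 cMoP cells, while Cebpa leads in none of the Myelo-2 or Myelo-4 cells.

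Gfi1, the gene that carries the allele, was set beside the members because its product and the C/EBP factors act on the same granulocyte genes. The table does not separate alleles. Its mean level was 6.18 ± 3.55 in MP, 7.36 ± 2.49 in Gran-1, 7.34 ± 2.64 in Gran-2, 4.57 ± 3.63 in Myelo-2 and 1.78 ± 2.81 in Myelo-4. So Gfi1 was lower in Myelo-4, where Cebpe had a mean of 3.99. Among the 62 other GMP cells, Cebpe was detected in 27 of 47 cells with Gfi1 (57.4%) and in 1 of 15 without it (6.67%), with Spearman's rho of 0.51 over these cells. In the 32 Mono cells of that run the counts were 12 of 24 and 1 of 8, and rho was 0.46. In CD11b+ GMP-P the counts were 22 of 32 with Gfi1 and 9 of 14 without, and rho was -0.11. Among other GMP cells Cebpa was detected in 28 of 47 cells with Gfi1 and 7 of 15 without, with rho of -0.03. Cebpb had the opposite sign in Mono: it was detected in 12 of 28 cells with Gfi1 and 9 of 10 without, and rho was -0.60 over 38 cells.

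Other zipper proteins that can pair with C/EBP factors were taken from a list of 16 genes. Ddit3, which encodes the stress-induced family relative CHOP, was detected in 25 of 121 cells, and among the 8 states its mean was highest in Myelo-2 (2.31 ± 3.35). It moved with the run inside a state: in Mono 3 of 6 CD11b+ GMP-P cells detected it (mean 3.60 ± 4.38) and 3 of 32 other GMP cells did (0.19 ± 0.68), and in Gran-1 2 of 3 and 0 of 9. Of the 4 with the widest range of state means, Fos went from 5.74 in MP to 9.65 in Myelo-4, Junb was highest in cMoP (5.16), Atf4 in Mono (6.04) and Batf in Gran-1 (2.91). From MP to Myelo-4, 4 of 11 kept partners were called higher and 1 lower, with a median difference of 0.24 against -1.27 for all kept genes. The shares of all kept genes were 5.11% higher and 57.98% lower.

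Of 16 cofactors and regulators, 11 were kept between MP and Myelo-4, of which 1 was called higher and 9 lower, with a median of -1.31, near the -1.27 of all kept genes. The one higher was Trib1, whose product directs C/EBP alpha protein to degradation; it was listed at 0 in all 11 MP cells and had a mean of 3.77 ± 3.45 in Myelo-4. Spi1, which encodes the partner factor PU.1, had means of 3.15 ± 2.29 in MP and 1.87 ± 3.18 in Myelo-4 and was highest in cMoP (5.37). Cbfb, the partner of the RUNX factors, was also highest in cMoP (5.99). Among 14 upstream receptors and STATs, 13 were kept, with 1 called higher and 4 lower, a smaller share than the 57.98% of all kept genes called lower. Ifngr1 was at 9.25 ± 1.24 in MP and 2.84 ± 3.08 in Myelo-4, and Csf2rb, Il6st and Stat3 had their lowest means (2.26, 0.01 and 0.51) in Myelo-4, Myelo-2 and Myelo-4.

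Genes described as targets of C/EBP epsilon were followed as a list of 14, which include the sort gene Itgam. From Gran-1 to Gran-2 over all runs, 13 of 14 were called higher and none lower. Of all kept genes, 7.85% were called higher and 24.4% lower. The median difference was 4.30 against -0.37 for all kept genes. Here 9 of 14 Gran-1 cells were other GMP and 13 of 15 Gran-2 cells were CD11b+ GMP-P, so state is largely tied to run and sort. Chil3, which encodes a chitinase-like protein, was at 4.65 ± 4.64 in Gran-1 and 12.80 ± 1.40 in Gran-2. Ngp, which encodes a neutrophil granule protein, was at 2.87 ± 4.78 and 10.07 ± 3.75. Cebpe itself differed by 0.57 between these states, a smaller difference than that of its target list. In CD11b+ GMP-P alone, with 3 Gran-1 cells, 11 of the 14 were called higher and 1 lower, with a median of 2.76 against 0.22. All kept genes in that run were called higher in 28.5% and lower in 26.6%. There Ngp differed by 0.14 and Ltf by -2.18, against 7.20 and 2.60 over all runs, so the size of the difference for Ngp and the direction for Ltf depended on the run.

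From Gran-2 to Myelo-2 within CD11b+ GMP-P, 11 of the 14 were called higher and 1 lower, with a median of 3.46 against -0.83 for all kept genes. The shares of all kept genes were 5.29% higher and 43.4% lower. Ltf, which encodes the iron-binding granule protein lactoferrin, was at 3.88 ± 2.83 in Gran-2 and 12.97 ± 2.65 in Myelo-2. Camp, which encodes the antimicrobial peptide cathelicidin, was at 11.17 ± 3.09 and 15.26 ± 0.44. Ngp, Camp, Chil3 and Ltf were listed at 0 in all 11 MP cells and all 5 cMoP cells. Cebpe too was at 0 in cMoP, but in MP it had a mean of 2.16 and was detected in 6 of 11 cells. Between CD11b+ GMP-P and late July GMP, 12 of 14 were called lower and none higher, with a median of -1.35, while Cebpe differed by 0.17. The shares of all kept genes there were 5.95% lower and 12.7% higher.

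Genes described as targets of C/EBP alpha formed a list of 14, of which Csf3r and Lyz2 are also in the epsilon list. From Gran-1 to Gran-2 over all runs, 3 of 12 kept genes were called higher and none lower. Of all kept genes, 7.85% were called higher and 24.4% lower. In CD11b+ GMP-P alone, with 3 Gran-1 cells, 7 of 12 were called higher and 1 lower. There 28.5% of all kept genes were called higher and 26.6% lower. From Gran-2 to Myelo-2 within CD11b+ GMP-P, where Cebpa was 1.23 lower, 8 of 11 were called lower and 2 higher. The shares of all kept genes were 43.4% lower and 5.29% higher. The median was -2.53 against -0.83 for all kept genes. Mpo, which encodes the primary granule enzyme myeloperoxidase, was at 14.19 ± 0.62 in Gran-2 and 8.80 ± 2.36 in Myelo-2. Ctsg, which encodes cathepsin G, was at 11.03 ± 0.87 and 3.68 ± 3.70, and Ms4a3 at 11.64 ± 0.54 and 8.49 ± 1.41. Lyz2, the lysozyme gene, went the other way, from 8.46 ± 3.77 to 13.64 ± 0.93. Mpo, Ctsg and Ms4a3 all had means of at least 11.17 in MP, Gran-1 and Gran-2, whose Cebpa means were 3.20, 1.42 and 1.23.

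Genes described as repressed by C/EBP alpha form a list of 9. From MP to Myelo-4, none of 8 kept genes was called higher and 4 were called lower (50%, against 57.98% of all kept genes), with a median of -1.02 against -1.27. Myc went from 6.63 ± 2.79 in MP to 0.44 ± 1.15 in Myelo-4 and Cdk4, a cell cycle kinase gene, from 8.09 ± 1.66 to 0.33 ± 0.79. Sox4 was highest in cMoP (3.65), a state with a Cebpa mean of 0.32. It was at 0.21 in Myelo-2 and 0.04 in Myelo-4, whose Cebpa means were 0.07 and 0.53, and at 0.77 in MP. Cdk2 was highest in MP (3.82).

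**Figure D5:**
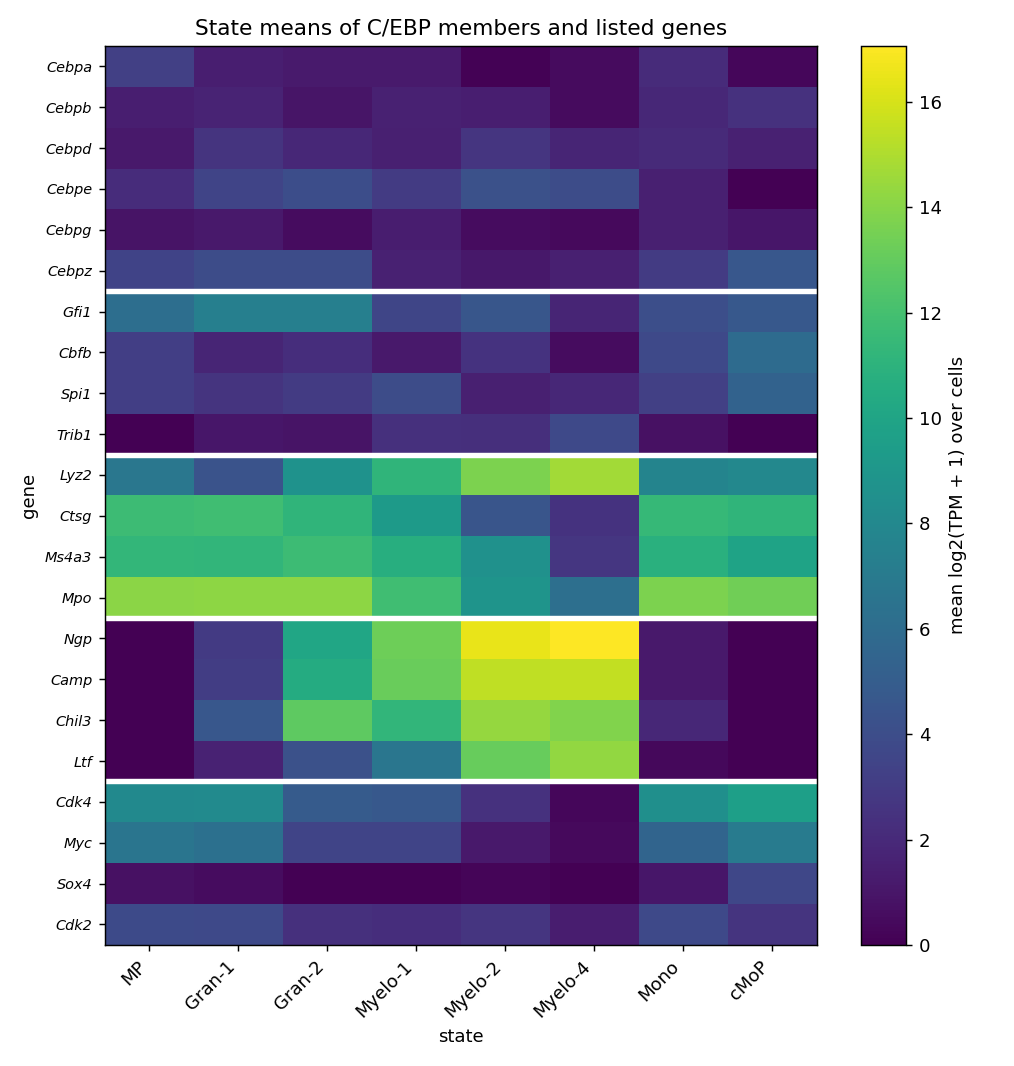
Colour gives the mean log2(TPM + 1) over the cells of each state (x axis) for 6 family members and, below the white lines in turn, 4 genes each from the lists of regulators, of C/EBP alpha targets, of C/EBP epsilon targets and of genes described as repressed by C/EBP alpha. Ngp reaches 17.06 in Myelo-4, where Mpo is at 6.23, against 14.08 in MP.

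From MP to Myelo-4, 13 of the 14 epsilon target genes were called higher, against 5.11% of all kept genes. Among them Ngp, Camp, Chil3, Ltf, Cd177, Mmp9 and Itgam had a mean of 0 in MP. These were kept only through Myelo-4 and could not be called lower, so the count is no test of C/EBP epsilon. From Myelo-2 to Myelo-4 in CD11b+ GMP-P, 4 were called higher and 2 lower, against 10.9% and 30.7% of all kept genes. The 250 bases before the annotated starts of the 14 genes were searched for a loose form of the C/EBP motif, TTGCNNAA, on both strands (TTNNGCAA on the other). Sequences came from RefSeq (GRCm38.p6), which is not the build of the expression table, and 12 of the 14 genes had one. The motif was in 5 of these 12 (41.7%): Fcnb, Lcn2, Ltf, Mmp8 and Ngp. It was in 2 of 11 C/EBP alpha targets with a sequence (18.2%), Gfi1 and Mgst1, and in 10.8% of all 27025 genes of the RefSeq promoter table, searched over the same length. Of the family, Cebpa, Cebpb and Cebpg had a sequence and none held these letters in that window. The windows below show the matches of the granule genes, in lower case on the gene's strand, with the motif in capitals.
Ltf: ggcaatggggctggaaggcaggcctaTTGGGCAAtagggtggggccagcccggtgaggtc
Ngp: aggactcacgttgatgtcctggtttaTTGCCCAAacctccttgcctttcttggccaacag
Lcn2: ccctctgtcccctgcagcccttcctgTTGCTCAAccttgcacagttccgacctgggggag
Fcnb: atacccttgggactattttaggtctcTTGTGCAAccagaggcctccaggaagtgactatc
Mmp8: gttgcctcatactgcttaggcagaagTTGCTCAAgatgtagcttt

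They lie at chr9:111019191-111019250 on the plus strand for Ltf, chr9:110419644-110419703 on the plus strand for Ngp, chr2:32387922-32387981 on the minus strand for Lcn2, chr2:28084968-28085027 on the minus strand for Fcnb and chr9:7558384-7558428 on the plus strand for Mmp8. The motif begins 75, 138, 216, 123 and 19 bases before the start in that order, and Ngp and Fcnb hold a second match each. A match is a description of letters and not of binding, and Camp and Chil3, which were also higher in Myelo-4 than in MP, held none. From MP to Myelo-4, Lcn2 went from 3.66 ± 3.58 to 14.11 ± 0.37, Mmp8 from 4.05 ± 3.55 to 11.93 ± 0.98 and Fcnb from 0.15 ± 0.50 to 6.71 ± 4.13. Fcnb was highest in Myelo-2 (10.26) and so was lower again in Myelo-4.

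Genes whose state means were most like those of each member were ranked by Pearson's r over the 8 states with at least 5 cells, among 6569 genes detected in at least 20% of cells. The closest to Cebpe were Pglyrp1, which encodes a granule protein that binds peptidoglycan (r = 0.97), Anxa1 (0.96), Ceacam1 (0.95), Vamp5 (0.94) and Syne1 (0.94). Anxa1 means ran from 8.52 in cMoP to 13.81 in Myelo-2, the same end states as Cebpe. In single cells Anxa1 was second and Pglyrp1 sixth by Spearman's rho with Cebpe (0.53 and 0.51). Syne1 had a rho of 0.49, and Vamp5 and Ceacam1 had 0.30 and 0.29.

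The genes closest to Cebpa by state means were Yif1a, Cacul1, Vma21, 1700047I17Rik2 and Fam177a (r = 0.97 for each), with single-cell rho of 0.33 or less. 1700047I17Rik2 and Fam177a had equal means in several states, so their reads may not have been told apart and their values are uncertain. The genes closest to Cebpd were Myo1g (0.93), Msl1 (0.89), Slc35e1 (0.88), Ctsl (0.86) and Ube2h (0.86), with rho between -0.11 and 0.19. The closest to Cebpb were B3gnt2, Inpp5k, Slx1b, Chek1 and Tpra1 (r from 0.95 to 0.97), with rho of 0.11 or less. With 8 points and 6569 genes, high values of r are given as a description only.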

How the data were processed

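The members, gene lists and comparisons were chosen with earlier results of these data known, and the promoter motif after the values were seen. The submitters' processing notes name Bowtie2, RSEM and mm9; the sources used here give no version or setting. The table deposited by the authors holds log2 values, read as log2(TPM + 1) because each cell transformed back to a sum of 999517 to 1001450 TPM. The authors' second table gives each cell's state. All 121 cells were used.

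Values were summarised with Python 3.11.15, pandas 2.3.3, numpy 2.4.6 and scipy 1.17.1: means and SDs over cells, detected shares with exact 95% intervals, and differences of state means called at 1 or more among genes detected in 10% of the cells of either side. No test was possible, because each population is 1 sample, so differences are read against the spread of cells and the share of all genes called. The calling step was run on simulated data with added differences larger than any member difference called in mean log2(TPM + 1). It therefore does not show how calls near 1 behave, and the rate of false calls was not measured. Named genes were all 6 members, the 5 genes most like each of Cebpa, Cebpb, Cebpd and Cebpe, up to 4 genes per pathway list with the widest range of state means, Gfi1 and Itgam; Ddit3, the antisense partners and the genes named for a promoter match were added after their values were seen. Alternatives were another pseudocount, the mean of TPM, upper quartile scaling, other detection lines, no filter, and leaving out low cells or run groups.

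Marker lists were checked in every run group. Dendritic, erythroid, megakaryocyte, B lineage, eosinophil and macrophage lists had summed medians of 84.4 TPM or less in each. The stem and multilineage list had medians of 1.2 TPM or less. The basophil and mast list had medians of 131.7 to 400.2 TPM. The T and NK list had medians of 149.9 to 3120 TPM, with Cd3e and Klrb1c listed at 0 in every cell. Of its 5 genes, 2 had a mean of at least 1 TPM among other GMP cells. Only 1 gene reached that mean in either remaining run group, where Cd8a too was at 0 throughout. The T and NK sums therefore rest on few of the listed genes and do not stand for the whole list.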

Additional observations from a re-analysis of the deposited data

How the results depend on the processing

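Of 240 recalculated member differences, 204 moved by less than 1 and less than the spread of cells, and 22 had the other sign. Of these, 21 belong to differences under the calling line, among them Cebpa in Gran-2 against Gran-1, 1.09 with CD11b+ GMP-P and late July GMP only against -0.19, and Cebpe there, -0.30 from mean TPM against 0.57. The called difference that turned was Cebpa in CD11b+ GMP-P against GMP, -1.45, which was 0.60 when the only GMP cells were those of late July. The cause was not tested. From MP to Myelo-4, Cebpa was -3.83 from mean TPM and -1.28 with a pseudocount of 10, and Cebpb was -0.26 with that pseudocount. Cebpe, called at 1.82 in the main setting, was under the calling line with that pseudocount.

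Counts of members called shifted with the pseudocount of 10, which shrinks low values by construction, and with mean TPM. The share of all kept genes called shifted too and is given in brackets, so a shifted count is no result about the family. With the pseudocount the counts of members were 0 for Gran-1 against MP (9.99%) and Mono against MP (4.62%). They were also 0 for Myelo-4 against Myelo-2 (17.2%) and CD11b+ GMP-P against GMP (11.2%). The count was 1 for Myelo-2 against Gran-2 (22.4%) and for Myelo-4 against MP (33.9%). From mean TPM, which single high cells can carry, the counts were 2 each for Gran-1 against MP and Mono against MP, 4 for Gran-1 against Mono, 1 for Gran-2 against Gran-1 over all runs, 2 for Myelo-4 against Myelo-2, 5 for Myelo-4 against MP, 4 for CD11b+ GMP-P against GMP and 3 against late July GMP. Gran-2 against Gran-1 had 1 call without the late July cells (36.1%) and 2 with CD11b+ GMP-P and late July GMP only (41.9%). CD11b+ GMP-P against GMP had 0 calls against late July GMP only (18.6%). With cells of at least 2000 detected genes it had 1 call each against GMP (24.5%) and late July GMP (26.7%).

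Cebpa and Cebpe were both detected in 8.26% of cells at a TPM of 10 or more and in 0% within late July GMP. Among 64 detected shares, 45 stayed within the interval first given, and of 36 recalculated pair shares 18 did. Myelo-4 against MP was not run on cells with at least 2000 detected genes, since 2 of 10 Myelo-4 cells had them. Cebpa kept its highest and lowest state under every scale tried. The highest state of Cebpe, Myelo-2, was Myelo-1 by mean TPM (66.9) and Gran-2 among cells with at least 2000 detected genes (4.05), and that of Cebpb, cMoP, was Mono by mean TPM (15.9). No paired analysis was possible because which animal gave a cell is not labelled.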
